A study of Mus musculus with 27 samples.

Results

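Expression of 10 imprinted genes with known roles in growth, Igf2, H19, Dlk1, Meg3, Cdkn1c, Grb10, Plagl1, Peg3, Mest and Ndn, was followed through the differentiation of mouse osteoblasts in culture. The genes were chosen by name and identified by their Ensembl mouse gene numbers, and all 10 were found among the 37991 genes of each profile and passed the filter on low counts. Cells were taken from the calvariae (bones of the roof of the skull) of neonatal C57BL/6J-Col3.6 CFP mice aged 5 to 9 days, which express cyan fluorescent protein (CFP) under the Col3.6 promoter, a fragment of a type I collagen promoter. The cells were grown for 4 days, sorted for CFP and returned to culture in ascorbic acid, β-glycerol phosphate and serum, and RNA was collected on days 2, 4, 6, 8, 10, 12, 14, 16 and 18. No untreated or undifferentiated arm was compared, every day shared the strain, the sort and the medium, and the sources used here do not say how many mice were pooled. Each day has 3 profiles, which the study describes as triplicate samples, but the 3 carry 1 barcode in different sequencing lanes. They were therefore summed and counted as 1 library per day, 9 in all, and whether separate cultures stand behind them is not given in the sources used here. The total count was 22470147 to 62009115 per day, with day 10 the shallowest and day 12 the deepest.

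An imprinted gene is transcribed mainly from the copy inherited from one parent, and a mark of DNA methylation laid down in the egg or sperm sets which copy that is. Many of the paternally expressed genes, Igf2 and Dlk1 among them, promote growth of the fetus and newborn, and several of the maternally expressed ones, such as Cdkn1c and Grb10, restrain it. Many are abundant in embryonic and neonatal tissue and decline after birth, and several are active in mesenchymal cells, the lineage from which osteoblasts arise. The parental origin of the transcripts was not measured here.

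The genes lie in 7 regions of the mouse genome (NCBIM37). H19 (ENSMUSG00000000031, chr7:149761434-149764048, minus strand) and Igf2 (ENSMUSG00000048583, chr7:149836673-149852721, minus strand) are 72624 bases apart, and Cdkn1c (ENSMUSG00000037664, chr7:150644255-150646955, minus strand) lies 791533 bases beyond Igf2 in the same chromosome region. Dlk1 (ENSMUSG00000040856, chr12:110691033-110701546, plus strand) and Meg3 (ENSMUSG00000021268, chr12:110779211-110809936, plus strand) are 77664 bases apart. Mest (ENSMUSG00000051855) spans chr6:30673547-30698457 on the plus strand, Peg3 (ENSMUSG00000002265) chr7:6656603-6683132 on the minus strand, Plagl1 (ENSMUSG00000019817) chr10:12810497-12851500 on the plus strand, Grb10 (ENSMUSG00000020176) chr11:11830511-11938686 on the minus strand and Ndn (ENSMUSG00000033585) chr7:69493163-69494814 on the plus strand.

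The promoters of 6 genes are printed because they cover both kinds of time course reported below: Plagl1, Peg3 and Mest were low on day 2 and highest between days 10 and 12, Dlk1 and its neighbour Meg3 moved apart, and Ndn changed little. Each run is 5′ to 3′ on the strand of the gene, from 250 bases before to 50 after a RefSeq start (table build GRCm38.p6), and was placed in NCBIM37 by its 1 exact match on the chromosome. The RefSeq table held 15 such windows for 8 of the 10 genes, and none for H19 and Cdkn1c. Of several starts of a gene 1 is printed: for Meg3 the upstream one of 2, and for Mest the second of 3, which lies 3 bases before the last. Capitals mark matches, on either strand, to the TATA box TATAAA, the GC box GGGCGG, the core GGGGCCCC of the sequence bound by the Plagl1 protein, the E-box CACGTG, the YY1 core AAGATGG and the Runx core TGTGGT.
Plagl1, chr10:12810388-12810687, plus strand: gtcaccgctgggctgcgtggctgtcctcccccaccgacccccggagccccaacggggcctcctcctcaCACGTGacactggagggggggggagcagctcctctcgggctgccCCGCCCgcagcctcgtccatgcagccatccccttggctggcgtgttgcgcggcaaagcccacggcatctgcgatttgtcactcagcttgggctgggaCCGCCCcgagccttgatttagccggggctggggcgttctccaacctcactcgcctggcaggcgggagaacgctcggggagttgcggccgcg
Peg3, chr7:6683081-6683380, minus strand: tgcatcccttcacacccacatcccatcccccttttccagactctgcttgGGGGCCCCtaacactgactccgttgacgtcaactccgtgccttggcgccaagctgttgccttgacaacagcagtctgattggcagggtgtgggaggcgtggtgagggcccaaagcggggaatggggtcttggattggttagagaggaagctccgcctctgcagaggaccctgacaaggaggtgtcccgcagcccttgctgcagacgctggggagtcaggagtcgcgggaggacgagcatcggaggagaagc
Mest, chr6:30687800-30688099, plus strand: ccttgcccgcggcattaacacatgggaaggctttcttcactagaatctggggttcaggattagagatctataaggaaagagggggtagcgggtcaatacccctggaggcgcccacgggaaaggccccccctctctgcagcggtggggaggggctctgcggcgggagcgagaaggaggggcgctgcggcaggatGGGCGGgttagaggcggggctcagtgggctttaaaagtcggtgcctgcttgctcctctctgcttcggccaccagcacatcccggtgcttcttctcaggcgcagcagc
Dlk1, chr12:110690783-110691082, plus strand: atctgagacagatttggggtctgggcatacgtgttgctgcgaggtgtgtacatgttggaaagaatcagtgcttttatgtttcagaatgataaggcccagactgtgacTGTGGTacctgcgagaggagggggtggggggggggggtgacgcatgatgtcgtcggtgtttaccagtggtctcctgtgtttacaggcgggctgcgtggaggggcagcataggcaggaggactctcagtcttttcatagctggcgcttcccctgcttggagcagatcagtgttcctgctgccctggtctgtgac
Meg3, chr12:110778956-110779255, plus strand: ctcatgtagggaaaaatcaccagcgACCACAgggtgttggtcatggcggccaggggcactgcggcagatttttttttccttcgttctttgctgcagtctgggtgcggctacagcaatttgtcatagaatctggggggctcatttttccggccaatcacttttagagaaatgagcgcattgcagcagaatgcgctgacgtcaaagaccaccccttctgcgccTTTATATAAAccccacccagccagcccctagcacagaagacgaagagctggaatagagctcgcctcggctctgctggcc
Ndn, chr7:69492913-69493212, plus strand: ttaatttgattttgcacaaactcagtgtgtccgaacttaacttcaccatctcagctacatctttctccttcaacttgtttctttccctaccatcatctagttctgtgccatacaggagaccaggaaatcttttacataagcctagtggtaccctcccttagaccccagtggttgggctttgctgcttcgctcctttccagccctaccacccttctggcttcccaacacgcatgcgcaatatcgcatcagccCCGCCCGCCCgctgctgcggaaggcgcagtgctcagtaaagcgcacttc

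The Peg3 window holds 1 match to the Plagl1 core, which reads the same on both strands and is found in 1.08% of the 32851 promoter windows of the table. The Plagl1 window holds 2 GC boxes and 1 E-box, the Mest window 1 GC box, and the Ndn window 2 overlapping GC boxes, whereas 35.7% of all windows hold a GC box and 7.15% an E-box. The Dlk1 and Meg3 windows each hold 1 Runx core, as do 16.8% of all windows, and the Meg3 window holds 2 overlapping TATA boxes, which are read on opposite strands and are found in 13.6%. The Meg3 window not printed holds none of the motifs and 1 CpG, and the first Mest window holds 1 GC box and 8 CpG. No printed window holds the YY1 core, which is found in 6.34% of all windows. CpG dinucleotides, the bases at which imprinting marks are set, number 26 in the Plagl1 window, 17 in Mest, 13 in Peg3, 13 in Meg3, 11 in Ndn and 9 in Dlk1, against a median of 7 over the table. These matches describe the printed letters, and factor binding and methylation were not measured.

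H19, Mest, Igf2 and Meg3 are also hosts of microRNAs. Mature sequences (RefSeq) are shown for H19, Mest and Igf2 only, because these hosts were among the genes that rose. The seed, bases 2 to 8, is in capitals, and the 6 seeds differ from each other.
miR-675-5p, from H19: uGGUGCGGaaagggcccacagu
miR-675-3p, from H19: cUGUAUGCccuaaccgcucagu
miR-335-5p, from Mest: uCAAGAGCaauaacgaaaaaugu
miR-335-3p, from Mest: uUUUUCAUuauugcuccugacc
miR-483-5p, from Igf2: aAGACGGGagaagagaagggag
miR-483-3p, from Igf2: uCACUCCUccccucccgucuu

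The miR-675 hairpin (chr7:149762969-149763052) lies in an exon of 2 of the 3 annotated H19 transcripts that span it, and the miR-335 hairpin (chr6:30691299-30691396) lies in introns of all 9 Mest transcripts that span it. The miR-483 hairpin (chr7:149840829-149840901) lies in introns of all 8 Igf2 transcripts that span it. The genes of these hairpins had 0 counts in every profile. Mature microRNAs were not measured by these libraries, so this count gives no limit on their level.

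In the 9 days, 6 of the 10 genes rose along a straight line in day (Cdkn1c, Dlk1, Mest, Igf2, Plagl1 and H19), none fell, and 4 did not pass the test (Peg3, Meg3, Grb10 and Ndn). The line was fitted to all genes with the quasi-likelihood test of edgeR on counts, with a threshold of 0.05 on the Benjamini-Hochberg adjusted p over 15659 genes, of which 54.3% passed, 28.3% rising and 26.1% falling. The fitted log2 change between days 2 and 18 had a median of 1.65 over the 10 genes and 0.05 over all genes tested, and the median absolute change over all genes was 0.76. H19 and Mest lost the call when any of days 2, 4, 6, 12 or 14 was left out, which left 4 rising genes. Since each day is 1 library, the test sets the slope against the scatter of the days around the line and not against the spread between cultures. In bulk RNA, as here, a change in the number of cells of a type and a change in RNA per cell cannot be told apart.

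**Figure D1:**
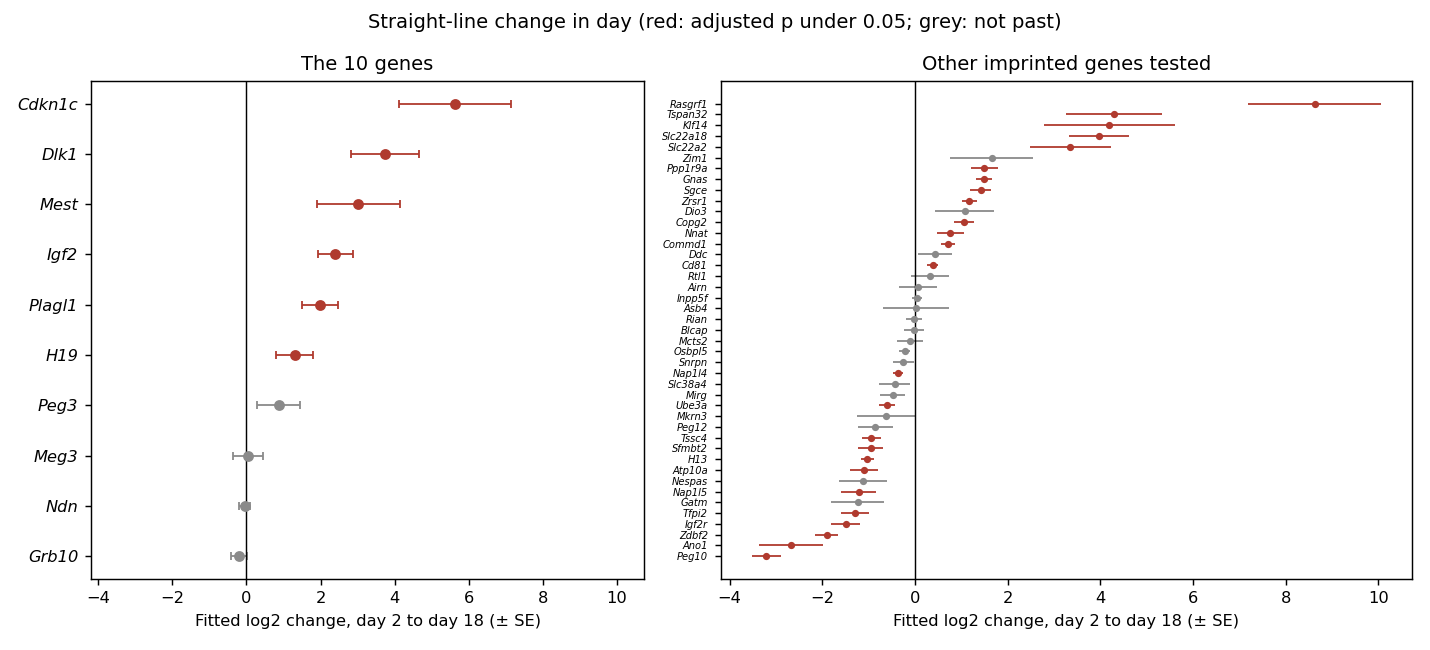
Fitted log2 change from day 2 to day 18 (horizontal axis) for the 10 genes on the left and for 43 other imprinted genes on the right. Bars are the SE derived from the test statistic, and genes past the threshold are in red and the others in grey. The 6 red genes on the left all lie above 0, from 1.30 for H19 to 5.62 for Cdkn1c, whereas the red genes on the right lie on both sides of 0, 13 above and 12 below.

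A straight line describes these time courses only in part, since most of the genes had their highest level in the middle of the culture. A smooth curve (natural spline with 3 degrees of freedom, edgeR, 16256 genes tested) passed the threshold for 9 of the 10 genes, all but Ndn, and for 57.5% of all genes. On simulated counts both tests made more false calls than the threshold allows, a share of 0.126 for the curve and 0.0688 for the line. Only a small part of the genes changed in that simulation, and all along a line. These shares therefore cannot say how certain a call by the curve alone (Peg3, Meg3 and Grb10) is beside one by the line. Of the 10 genes, 8 had their highest CPM (counts scaled to the size of the library, with upper-quartile factors) on day 10, 12 or 14, against 24.6% of all genes. Day 2 held the lowest CPM of 6 of them, against 29.3%, and 5 had both features, against 11.9%. All 10 were lower on day 18 than on day 14, but the share of all genes that were so was not computed, so this count is not read as particular to them. Compared directly (edgeR, 3 libraries against 3), days 14 to 18 exceeded days 2 to 6 in 6 of the 10 genes, the same 6 that rose along the line, and fell below them in none, where 51.8% of all genes differed, 26.6% rising and 25.2% falling. In 6 genes the libraries of days 14 to 18 all lay above those of days 2 to 6, and in none all below, against 32.6% and 29.6% of all genes. The summed level of the 10 genes rose from its lowest, 1987 TPM (transcript abundance per length, upper-quartile scaled) on day 4, to its highest, 7037 on day 12, and was 5666 on day 18, and Igf2 and H19 made up most of it.

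**Figure D2:**
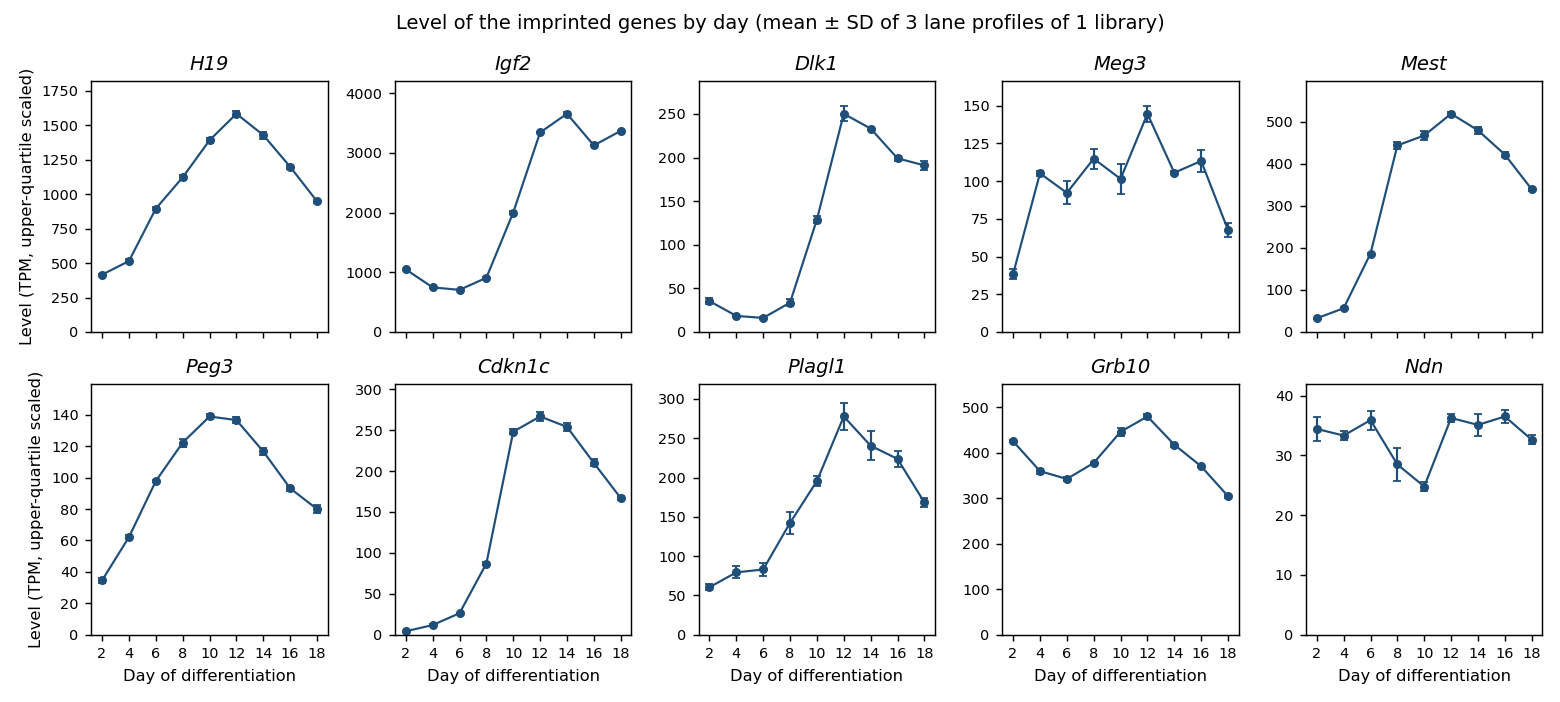
Level of each gene in TPM (vertical axis, starting at 0 and scaled to each gene) against day of differentiation, with points at the mean and bars at the SD of the 3 lane profiles of 1 library, which is technical error only. Igf2 is lowest on day 6, at 705.3, and highest on day 14, Cdkn1c goes from 4.17 to 266.7, and Ndn stays between 24.8 and 36.5.

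Igf2 encodes insulin-like growth factor 2, a secreted growth factor expressed from the paternal copy, and was the most abundant of the 10 genes on 7 of the 9 days, with only 34 genes of the whole profile higher in mean TPM. Its level was 1048, 746.7 and 705.3 TPM on days 2, 4 and 6, then 908, 2001 and 3342 on days 8, 10 and 12, and 3655, 3125 and 3368 on days 14, 16 and 18. It was thus lower on days 4 to 8 than on day 2, stood higher on day 10 than on day 8 by a ratio of 2.27 in CPM and held the higher level to the end, at 92.4% of its summit in CPM on day 18. The late days did not overlap the early ones. The fitted log2 change was 2.40 (SE 0.47, edgeR adjusted p = 0.00162), and days 14 to 18 exceeded days 2 to 6 by 1.93 (SE 0.20, edgeR adjusted p = 0.000256).

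H19, a noncoding RNA gene expressed from the maternal copy that shares enhancers with Igf2, followed another course. Its level was 415.7, 514.3 and 895 TPM on days 2, 4 and 6, then 1122, 1391 and 1583 on days 8, 10 and 12, and 1428, 1198 and 947.7 on days 14, 16 and 18. H19 was higher on each day than on the one before up to day 12, also on days 4 and 6, when Igf2 stood below its day 2 level, and on day 18 it was at 65.5% of its highest CPM. No 2 neighbours in the order of its days by CPM overlapped in their 95% Poisson intervals, nor did any of Igf2, but these intervals cover counting error only. The fitted log2 change was 1.30 (SE 0.49, edgeR adjusted p = 0.0446), and it did not pass without day 2 (0.79, edgeR adjusted p = 0.231). The curve was past the threshold (edgeR adjusted p = 6.20e-07).

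The ratio of H19 to Igf2 counts, which does not depend on any scaling between libraries, traced the difference. It was 0.374, 0.684 and 1.29 on days 2, 4 and 6, then 1.24, 0.679 and 0.469 on days 8, 10 and 12, and 0.386, 0.370 and 0.293 on days 14, 16 and 18. H19 therefore had more counts than Igf2 on days 6 and 8 only, and the ratio was lowest on day 18. Over all 9 days the relation of the ratio to day did not pass the test (Spearman's rho = -0.60, exact permutation p = 0.0968, Pearson's r of the log2 ratio = -0.53, exact permutation p = 0.15, two-sided; both p unchanged by Benjamini-Hochberg adjustment over the 2 ratios examined). With both end days dropped, the 2 farthest from the median day, rho was -0.89 (exact permutation p = 0.0123) and r was -0.78 (exact permutation p = 0.0409), and without day 2 alone rho was -0.93 (exact permutation p = 0.00223), so the result over all days turns on day 2.

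Dlk1 encodes a transmembrane protein related to the ligands of Notch, is expressed from the paternal copy and is known as a brake on the formation of fat cells. Its level was 35.4, 18.4 and 16.1 TPM on days 2, 4 and 6, then 33.7, 128.9 and 250.2 on days 8, 10 and 12, and 233.2, 199.1 and 191 on days 14, 16 and 18. As for Igf2, the level was lower on days 4 and 6 than on day 2 and far higher from day 10 on, and the ratio of day 10 to day 8 in CPM, 4.00, was the largest of the 10 genes. The counts behind these values ran from 544 on day 6 to 10629 on day 12, and the Poisson intervals of days 4 and 6, of days 2 and 8 and of days 16 and 18 overlapped. Dlk1 had a fitted log2 change of 3.74 (SE 0.91, edgeR adjusted p = 0.00547).

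Meg3 is a noncoding RNA gene of the same cluster expressed from the maternal copy. Its level was 38.4, 105.2 and 92.3 TPM on days 2, 4 and 6, then 114.9, 101.5 and 144.7 on days 8, 10 and 12, and 105.6, 113.4 and 67.6 on days 14, 16 and 18. Meg3 was low at both ends and ran between 96.6 and 125.5 CPM on days 4 to 16. In the order of its days by CPM, 5 pairs of neighbours overlapped in their Poisson intervals, but no day overlapped the next in time. The fitted log2 change of Meg3 was 0.04 (SE 0.41, edgeR adjusted p = 0.939). The curve passed the threshold (edgeR adjusted p = 0.0106). The day of its summit depends on the unit: in CPM it was day 8 (125.5), and in TPM day 12, and the effective length that RSEM averaged over its 10 transcripts, by which TPM is divided, went from 1919 bases on day 2 to 1358 on day 12.

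Dlk1 and Meg3 thus moved apart. The ratio of Meg3 to Dlk1 counts was 1.66, 9.15 and 8.72 on days 2, 4 and 6, then 4.60, 0.991 and 0.662 on days 8, 10 and 12, and 0.603, 0.691 and 0.494 on days 14, 16 and 18. Meg3 had more counts than Dlk1 on days 2 to 8 and fewer on days 10 to 18. Over the 9 days the ratio was related negatively to day, although it was higher on day 4 than on day 2 (Spearman's rho = -0.85, exact permutation p = 0.00607, adjusted p = 0.0121, two-sided, and Pearson's r of the log2 ratio = -0.77, exact permutation p = 0.0195, adjusted p = 0.039). These p-values do not measure the spread between cultures. When both end days (2 and 18) were dropped, rho was -0.89 (exact permutation p = 0.0123) and r was -0.92 (exact permutation p = 0.00278). With 1 day left out, the adjusted exact permutation p of rho no longer passed without day 10 or day 18 (rho -0.79 and p 0.0558 in either case). That of r passed only without day 2 or day 8, and was 0.053 to 0.103 without any of the other 7 days. Counts are not corrected for transcript length, so the level at which the ratio crosses 1 has no meaning for molar amounts.

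**Figure D3:**
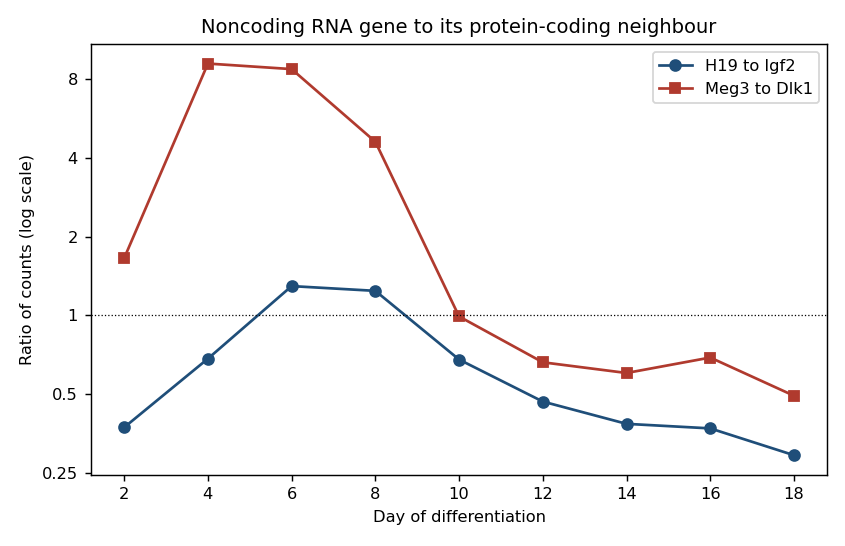
Ratio of counts (vertical axis, log scale, dotted line at 1) against day of differentiation for H19 to Igf2 (blue circles) and Meg3 to Dlk1 (red squares), with 1 library per day and no error bars. Both ratios are higher on days 4 to 8 than on day 2 and end at 0.293 and 0.494 on day 18.

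Cdkn1c encodes p57, an inhibitor of cyclin-dependent kinases that holds cells out of the division cycle, and is expressed from the maternal copy. Its level was 4.17, 11.8 and 26.2 TPM on days 2, 4 and 6, then 87.0, 248.1 and 266.7 on days 8, 10 and 12, and 254, 209.9 and 167 on days 14, 16 and 18. This was the widest range of the 10 genes, 63.9 times from the lowest to the highest day, and its counts went from 196 to 15435. Days 12 and 14 were within counting error of each other in CPM. Along the line Cdkn1c changed by a log2 of 5.62 (SE 1.52, edgeR adjusted p = 0.00978). Beside it, all 10 of 10 listed proliferation genes fell along the line, as 26.1% of all genes did (Mki67, Top2a, Ccnb1, Ccna2, Cdk1, Ccne1, Pcna, Mcm2, Bub1 and Aurkb), with a median log2 change of -2.42 and a summed level that went from 510.2 TPM on day 2 to 168 on day 18. Day by day the directions were opposite only in part. The sum was 490.1 to 575 TPM on days 2 to 6, when Cdkn1c rose, and 209.7 to 533.7 on days 8 to 12. On days 14 to 18 it was 168 to 192.8, and Cdkn1c fell as well. No relation between these values was tested.

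Grb10 encodes an adaptor protein that binds the insulin and IGF1 receptors and dampens their signal, and in most tissues it is expressed from the maternal copy. Its level was 425.2, 359.7 and 342.4 TPM on days 2, 4 and 6, then 377.6, 446.2 and 479.8 on days 8, 10 and 12, and 417.8, 370.2 and 304.5 on days 14, 16 and 18. The range was only 1.58 times, and early and late days overlapped. The fitted log2 change was -0.20 (SE 0.21, edgeR adjusted p = 0.456), and the curve, with a dip on day 6 and a summit on days 10 to 12, passed the threshold (edgeR adjusted p = 0.00476) but not when fitted with 2 degrees of freedom (edgeR adjusted p = 0.252).

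Plagl1 encodes a zinc finger transcription factor, expressed from the paternal copy, whose known targets include other imprinted genes. Its level was 60.4, 79.3 and 83 TPM on days 2, 4 and 6, then 142.3, 195.5 and 277.7 on days 8, 10 and 12, and 240.5, 223.7 and 168.4 on days 14, 16 and 18. Every late day lay above every early day, and the fitted log2 change was 1.99 (SE 0.49, edgeR adjusted p = 0.00613). The effective length averaged over its 27 transcripts moved between 2426 and 2922 bases, and its profile-to-profile SD reached 371 bases on day 8, so its TPM is less certain than its count.

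Peg3, another paternally expressed zinc finger gene, was at 34.6, 62.2 and 97.9 TPM on days 2, 4 and 6, then 122.4, 139 and 136.7 on days 8, 10 and 12, and 116.7, 93.3 and 80.0 on days 14, 16 and 18. It was highest on day 10 in both units and came to 57.0% of its highest CPM on day 18, and days 6 and 16 were within counting error of each other in CPM. The line did not pass (log2 change 0.87, SE 0.58, edgeR adjusted p = 0.228), while the curve gave the smallest adjusted p of the 10 genes (edgeR, 9.87e-08).

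Mest encodes a protein of the hydrolase fold family and is expressed from the paternal copy. Its level was 32.5, 56.5 and 186.6 TPM on days 2, 4 and 6, then 444.2, 467.9 and 519.6 on days 8, 10 and 12, and 480.2, 422.4 and 339.8 on days 14, 16 and 18. The ratio of day 10 to day 8 in CPM was 1.11, against 2.27 for Igf2 and 4.00 for Dlk1. Mest had a fitted log2 change of 3.02 (SE 1.12, edgeR adjusted p = 0.0409), and without day 2 it was 1.83 (edgeR adjusted p = 0.174). Mest overlaps Copg2 on the opposite strand, and no source used here states that strand was kept in counting. The Copg2 count was 6.78% of that of Mest over all profiles, and the Mest count differed from a whole number by more than 0.005 in all 27 profiles, which shows that some of its reads were shared with other transcripts.

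Ndn encodes necdin, a protein best known in neurons, and is expressed from the paternal copy. Its level was 34.4, 33.3 and 35.9 TPM on days 2, 4 and 6, then 28.5, 24.8 and 36.3 on days 8, 10 and 12, and 35.1, 36.5 and 32.6 on days 14, 16 and 18. In the order of its days by CPM, all 8 pairs of neighbours overlapped in their Poisson intervals. In time, the intervals of days 6 and 8 and of days 10 and 12 did not overlap, so days 8 and 10 lay lower by more than counting error. Neither the line (log2 change -0.05, SE 0.16, edgeR adjusted p = 0.813) nor the curve (edgeR adjusted p = 0.43) passed. Ndn was lowest on day 10, the shallowest library, with 515 counts, at the time when most of the other genes stood near their highest level.

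**Figure D4:**
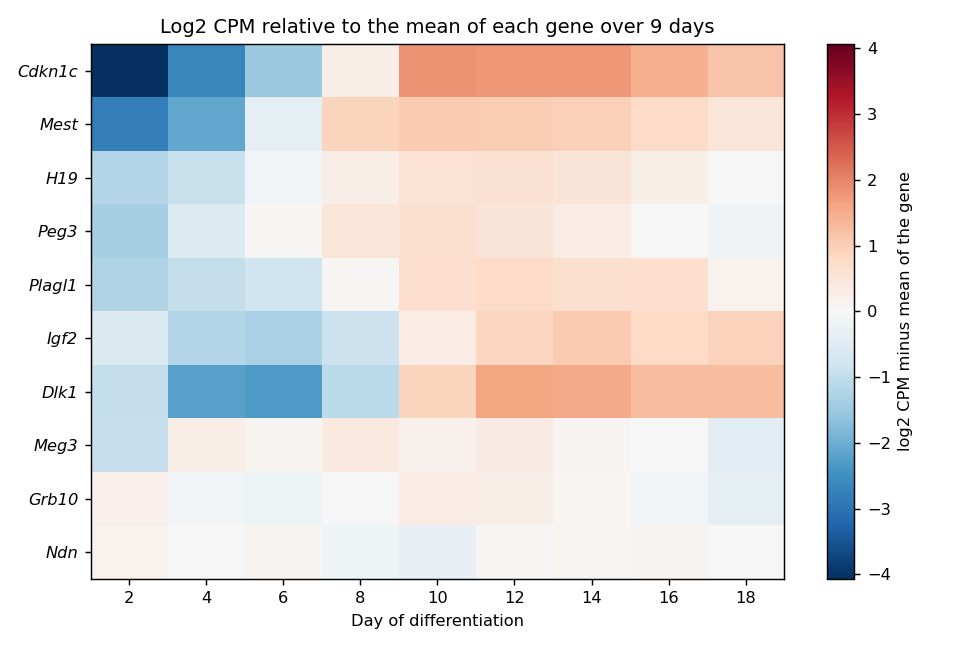
Log2 CPM of each gene minus the mean of that gene over 9 days (colour, red above and blue below) for the 10 genes in rows and the days in columns. Cdkn1c, Mest, H19, Peg3 and Plagl1 are blue on day 2 and red from day 10 to day 14, Igf2 and Dlk1 are blue to day 8 and red from day 10 on, and Grb10 and Ndn are pale throughout.

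Whether the genes moved together was described by Pearson's r over the 9 days on log2 CPM, with the same libraries, and hence the same depth and scaling, behind both genes of a pair. The median r of the 45 pairs was 0.478, from -0.578 to 0.987, and 14 pairs (31.1%) had an r of at least 0.8. Over the 122594311 pairs of all genes tested, the median was 0.006 and 9.73% of pairs reached 0.8. After the straight line in day had been removed from each gene, the median was 0.426 and 28.9% of pairs reached 0.8, against 2.36% of all pairs. The pairs of all genes were not matched to the 10 genes for level, and the effect of level on r was not tested. The 10 genes share a chromosome region in part and were chosen with results of these data known, so no p was attached.

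The pairs named here were picked after the values were seen and were not tested. Cdkn1c, Mest, H19, Peg3 and Plagl1 correlated with each other at 0.80 to 0.98, with H19 and Mest at 0.981, Cdkn1c and Plagl1 at 0.976 and Mest and Cdkn1c at 0.963. Igf2 and Dlk1, which lie on different chromosomes, had the highest r of all pairs, 0.987, and it was 0.96 after the line was removed. Igf2 and Dlk1 were not set apart from the first genes, since Plagl1 had an r of 0.869 with Dlk1 and 0.824 with Igf2, and Cdkn1c 0.814 and 0.779. With the line removed these were 0.603, 0.42, 0.363 and 0.159. The neighbours were less alike: H19 and Igf2 had an r of 0.613, which was 0.05 after the line was removed, and Dlk1 and Meg3 had an r of -0.02. Meg3 came closest to Peg3, at 0.784. Grb10 had a median r of 0.115 with the other genes, but with the line removed it reached 0.94 with Dlk1, 0.84 with Plagl1, 0.83 with Igf2 and 0.655 with Cdkn1c. Ndn correlated negatively with all 9 other genes, with a median of -0.383.

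**Figure D5:**
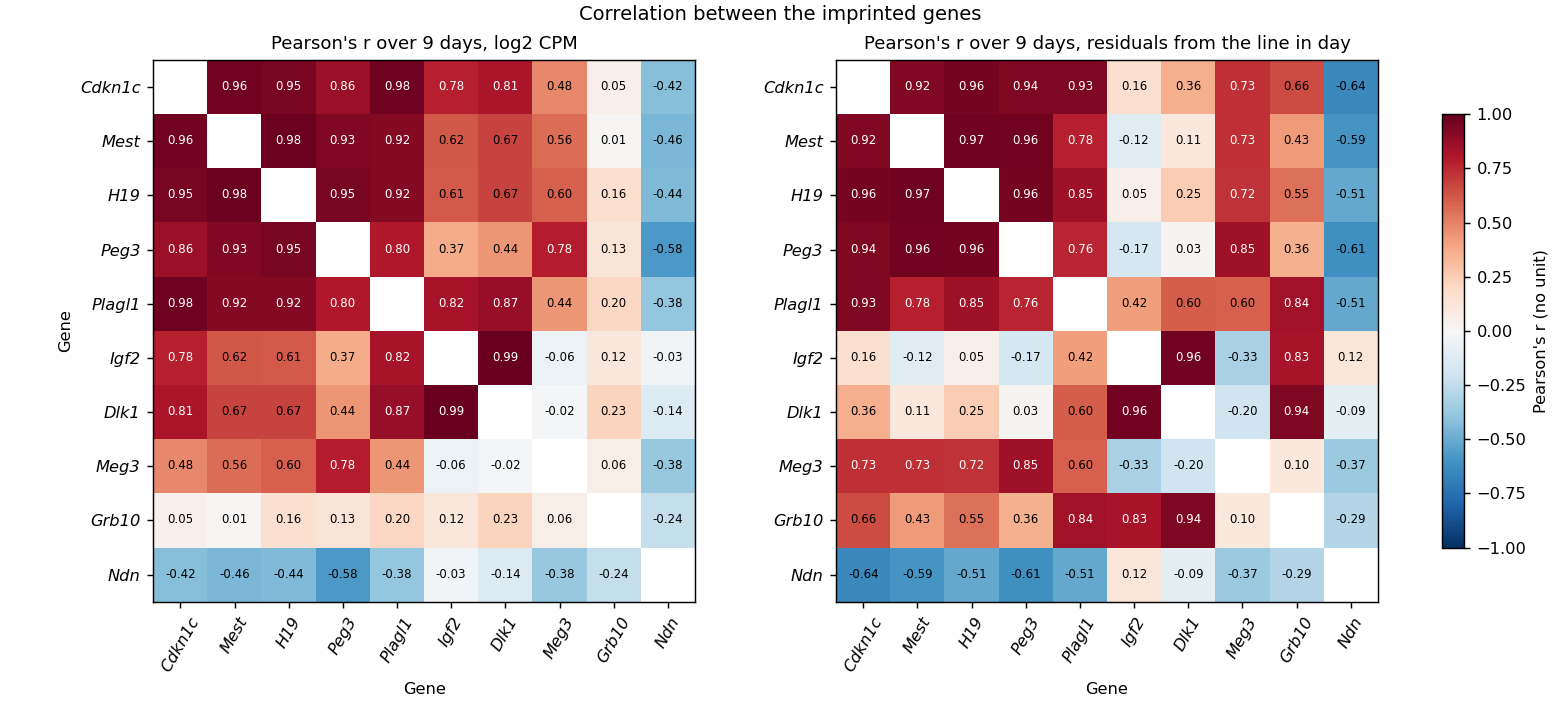
Pearson's r over 9 days between each pair of the 10 genes (colour and printed value), on log2 CPM on the left and on residuals from the straight line in day on the right. The block of Cdkn1c, Mest, H19, Peg3 and Plagl1 at the upper left and the pair of Igf2 and Dlk1 (0.99 and 0.96) keep high values in both panels, and the row of Ndn is blue on the left.

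Among the 7609 genes with a mean of at least 10 TPM, those with the most similar course in log2 CPM were Wdr6 (r = 0.992) and H2afv (0.990) for H19, Limch1 (0.993) and Npr3 (0.992) for Igf2, and Neo1 (0.993) and Tmod3 (0.990) for Dlk1. Itm2a (0.999) and Meis1 (0.997) were closest to Cdkn1c, Fstl1 (0.994) and Zcchc11 (0.990) to Plagl1, Lphn2 (0.993) and Gmds (0.992) to Peg3, and H2-K1 (0.993) and Gas2 (0.992) to Mest. For Meg3 they were Gm17312 (0.968) and Rian (0.954), the second a noncoding RNA gene of the same cluster. Grb10 and Ndn had less similar neighbours, at 0.951 for Rnd3 and 0.913 for Enc1, and at 0.930 for Atp6v0e and 0.913 for Prpsap2. With 9 points and many genes compared, values near 1 are frequent.

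Of 56 other imprinted genes on the list 52 were matched and 43 tested, of which 13 rose, 12 fell and 18 did not pass the line, with a median log2 change of -0.02. These shares are near those of all genes, 28.3% rising and 26.1% falling. The largest rises were those of Rasgrf1 (8.62, SE 1.44, with at most 6 counts per day up to day 8), Tspan32 (4.29, SE 1.03), Klf14 (4.19, SE 1.42, with 0 counts on day 2) and Slc22a18 (3.98, SE 0.65). The largest falls were those of Peg10 (-3.21, SE 0.31), Ano1 (-2.68, SE 0.69), Zdbf2 (-1.91, SE 0.24) and Igf2r (-1.49, SE 0.31). Fitted changes of genes with so few counts depend on the count added before the logarithm is taken.

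Genes beside the 10 in their clusters were tested in 9 cases, and 2 rose, where 28.3% of all genes did: Slc22a18, a transporter gene next to Cdkn1c, which went from 1.05 TPM on day 2 to 39.8 on day 18, and Copg2, which overlaps Mest (log2 change 1.06, SE 0.22, edgeR adjusted p = 0.00204). The units differ for Copg2: its counts were 885, 1022 and 1559 on days 2, 6 and 18, and its TPM 71.0, 15.3 and 154.6. Whether its reads were kept apart from those of Mest by strand is not given. Of the Dlk1 cluster, Rian ran between 114.1 and 192.2 TPM and did not pass the line (log2 change -0.02, SE 0.17, edgeR adjusted p = 0.931), nor did Mirg (-0.48, SE 0.27), Rtl1 (0.33, SE 0.41) or Dio3 (1.08, SE 0.64). Zim1, beside Peg3, had a log2 change of 1.65 (SE 0.90, edgeR adjusted p = 0.144) and, like Peg3, passed the curve (edgeR adjusted p = 2.24e-05), with its highest level, 11.2 TPM, on day 12. Neither Ddc (0.44, SE 0.37), beside Grb10, nor Mkrn3 (-0.62, SE 0.63), beside Ndn, passed.

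Of 18 listed genes of the IGF pathway, which include Igf1 and the Igf2bp genes, 17 were tested. Of these 8 rose, 6 fell and 3 did not pass the line, against 28.3% rising and 26.1% falling among all genes. The largest rises were in the binding proteins that carry IGF outside the cell: Igfbp3 went from 1.73 TPM on day 2 to 108.5 on day 18 (log2 change 5.79, SE 1.38, edgeR adjusted p = 0.00489), Igfbp5 from 18.6 to 562.7 (5.54, SE 1.01, edgeR adjusted p = 0.00105) and Igfbp4 from 56.8 to 1079 (4.23, SE 0.42, edgeR adjusted p = 4.75e-05). The largest falls were in the RNA-binding proteins Igf2bp1 (14.6 to 4.80 TPM, log2 change -2.25, SE 0.12, edgeR adjusted p = 3.32e-06) and Igf2bp2 (28.0 to 9.77, -1.96, SE 0.14, edgeR adjusted p = 1.11e-05) and in Igf1r, the receptor that passes on the growth signal (33.5 to 10.9, -1.92, SE 0.15, edgeR adjusted p = 1.90e-05). Igf2r, the imprinted receptor that clears Igf2 from the cell surface, went from 49.3 TPM on day 2 to 96.8 on day 6 and 26.7 on day 18.

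The labelled cell type was checked against its markers, and the late cultures also held transcripts of other cells. Along the line 28.3% of all genes rose and 26.1% fell, the shares beside which the marker counts stand. Of 7 osteoblast markers 5 rose and none fell. Their summed level was 1616 TPM on day 2 and 4646 on day 18, of which Col1a1 alone made up 1526 and 4263. Bglap, the osteocalcin gene of mature osteoblasts, went from 1.24 to 208.2 TPM. Sp7, a transcription factor of the lineage, and Alpl, alkaline phosphatase, did not pass the line but passed the curve (edgeR adjusted p = 1.16e-05 and 0.00742): Sp7 was at 32.3 TPM on day 2, 2.77 on day 8 and 10.6 on day 18, and Alpl at 9.13 on day 2, 0.467 on day 6 and 17.6 on day 18. Of 7 monocyte or macrophage markers 6 rose, and their sum was 24.1 to 61.7 TPM on days 2 to 6 and 522.4 to 2014 on days 14 to 18. Lyz2 alone made up 485.2 TPM of that sum on day 14 and 1855 on day 18, when the next highest, Cd68, was at 113.8. All 5 of 5 adipocyte markers rose, with a sum of 3.21 to 7.44 TPM on days 2 to 6 and 187.6 to 406.7 on days 14 to 18. Endothelial markers summed to at most 12.0 TPM on any day, with 2 of 3 tested rising and 1 falling, and the skeletal muscle markers, of which 2 were tested and both fell, to at most 18.1. Chondrocyte markers summed to 91.5 to 134.8 TPM, with 1 of 3 rising and 1 falling, and glia markers to at most 1.46 TPM, with 1 tested and rising. The part of these cells in the time courses of the imprinted genes was not tested.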

How the data were processed

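Profiles of mouse calvarial osteoblasts on 9 days of differentiation, 27 in all, were used. The authors aligned the reads to the NCBIM37 transcriptome with Bowtie 0.12.9 and quantified genes with RSEM 1.2.8, as the submitters' processing notes give it (the methods name another release), after amplifying the complementary DNA. The deposited expected counts are RSEM's estimated counts per gene, without normalization, in which a read that matches several transcripts is shared between them. The deposited TPM values divide these by an effective length averaged over isoforms, which can move with isoform use, and the deposited FPKM values, used in an alternative only, are scaled to the aligned fragments. Whether counting kept the strand is not given in the sources used here.

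Symbols for 37205 of the 37991 identifiers were read from GENCODE (NCBIM37). The 3 profiles of a day (7331125 to 20888956 counts each) carry 1 barcode in different lanes, so their counts were summed and rounded, and p-values rest on the spread across days around the fitted line or curve. For early against late days they rest on the spread between the 3 days of a group. Summed counts were fitted in edgeR 4.0.16 (R 4.3.3) with upper-quartile factors, a minimum count of 10 in filterByExpr and the quasi-likelihood test of a straight line, or of a natural spline, in day, with Benjamini-Hochberg adjustment over all genes tested. The SE given with a change was derived from the test, as the absolute change divided by the square root of the F statistic. It therefore restates the test and was not estimated separately. Log2 CPM used a prior count of 2, and TPM was divided by the 75th percentile of its values above 0 and rescaled to the mean of the 27 percentiles. Ratios of counts, with 0.5 added to each count before the logarithm, were tested against day with exact permutation tests over all orders of the days (Python 3.11.15, scipy 1.17.1). These tests take every order of the days as equally likely, although neighbouring days of a time course may resemble each other. Poisson intervals (95%) on CPM cover counting error only. On simulated counts the line recovered most of the genes made to change, and the share of false calls was above the threshold for both, by more for the spline.

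The 10 genes, the gene lists and the tests were chosen with earlier results of these data known. Named were all 10 genes, for each the 2 genes of at least 10 mean TPM with the highest r, the listed cluster neighbours, the 4 largest rises and 4 largest falls past the line among other imprinted genes and the 3 of each among IGF pathway genes. Promoter windows and microRNA sequences came from RefSeq tables. The alternatives were TMM factors, DESeq2 1.42.0, other filters and splines, the profiles as separate samples, leaving out a day or a lane profile, early against late days and other units.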

Additional observations from a re-analysis of the deposited data

How the results depend on the processing

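All 6 rising genes kept a positive change in the 120 fits of these genes under alternatives, and 110 of these passed the threshold. The 10 that did not were those of H19 and Mest without day 2, 4, 6, 12 or 14, so the number of rising genes went from 4 to 6 when a day or a lane profile was left out. It was 6 with TMM factors, DESeq2, either other filter, early against late days and without mitochondrial ribosomal RNA. With the 27 profiles as separate samples, which treats lanes as replicates, it was 7, Peg3 being added, both without and with the replicate block (edgeR adjusted p for Peg3 0.0271 and 0.0336), and 10881 genes in all passed with the block. The curve with the replicate block passed for all 10 genes, and for 12857 genes in all against 9350 with the 9 summed libraries. Replicate numbers coincide with lanes, and deviations of profiles with the same number were uncorrelated between days (mean r 0.000124), so the numbers pair nothing. Left-out days gave 9 genes past the curve each time, and 2 degrees of freedom gave 8.

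Of the 4 genes not past the line, 3 changed sign without passing it: Meg3 with TMM factors (-0.00196) and early against late days (-0.000294), and each of the 3 with a day left out. Over the days left out the log2 change of Meg3 ran from -0.577 without day 2 to 0.466 without day 18, and it was -0.015 without day 12. That of Grb10 ran from -0.297 without day 4 to 0.0129 without day 18, and that of Ndn from -0.111 without day 16 to 0.0529 without day 2. The median correlation was 0.652 on log2 TPM and 0.431 to 0.621 with a day left out. The rho of H19 to Igf2 was -0.893 without the first and the last day and -0.929 to -0.429 with a day left out, and that of Meg3 to Dlk1 was -0.929 to -0.786. The cause of these shifts was not tested. With 1 library per day, no value has an error from separate cultures, and Cdkn1c on days 2 and 4, Ndn on days 8 and 10 and Dlk1 on days 4 to 8 rest on the fewest counts.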
